A study of Homo sapiens with 6 samples.

Results

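CBLN2 and NETO1 are neighbouring genes on the long arm of chromosome 18, at 18q22. Open chromatin around them was compared between wild-type (WT) U2OS, an established human osteosarcoma line, and the same line lacking CRAMP1 through a knockout (CRAMP1-KO). The stretch was every ATAC-seq peak that touched 69000000 to 71000000 of chromosome 18 in the hg19 build. Peaks of the 6 libraries that overlapped by at least 1 bp were joined into 1 site, which gave 147 sites of 248031 in the genome. ATAC-seq marks open DNA by letting a transposase cut it. There were 3 libraries of each genotype, from 50000 cells each, tagmented for 30 minutes. No treatment separates the groups, and the labels do not say whether the CRAMP1-KO cells are 1 clone or whether replicates are separate cultures. The stretch was chosen by its peak calls and pileup in these same libraries, which differed between the genotypes, so differences inside it are described here without a test.

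CBLN2 encodes cerebellin-2, a secreted protein that bridges presynaptic neurexins and postsynaptic delta glutamate receptors. NETO1 encodes a membrane protein that serves as an auxiliary subunit of kainate-type glutamate receptors. Both are known mainly from neurons. CRAMP1 is known as a regulator of the genes of linker histone H1, a chromatin protein found where the DNA enters and leaves the nucleosome and linked to compaction. Accessibility is not expression, and the lists do not say whether either gene is transcribed. Peaks were listed in every library at the bone-lineage genes RUNX2 (12 to 18 peaks), COL1A1 (1 to 4) and COL1A2 (2 or 3), but also at PTPRC of blood cells (5 to 9), EPCAM of epithelium (2) and SNAP25 of neurons (3 to 10), so these peak counts do not set the labelled cell type apart.

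A joined site with a peak in all 6 libraries spanned the start of each gene, so the promoter letters are shown first. At CBLN2 the peaks of the WT libraries themselves ended just short of the hg19 start used here. They are the 250 bases before the RefSeq start in GRCh38.p14, read on the minus strand, on which both genes lie. The CBLN2 stretch is chr18:72544343-72544592 and the NETO1 stretch, at the outermost of its 3 listed starts, is chr18:72867988-72868237. Capitals mark the GC box GGGCGG, bound by Sp1-family factors, on either strand, and the 9 letters AGGTGGCGC, which match the core of the motif of CTCF, a chromatin loop anchor.
CBLN2: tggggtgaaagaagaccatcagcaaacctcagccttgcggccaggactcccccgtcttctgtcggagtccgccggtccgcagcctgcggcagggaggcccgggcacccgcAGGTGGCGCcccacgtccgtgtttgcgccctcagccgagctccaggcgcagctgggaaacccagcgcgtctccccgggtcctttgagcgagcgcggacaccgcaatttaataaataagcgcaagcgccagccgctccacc
NETO1: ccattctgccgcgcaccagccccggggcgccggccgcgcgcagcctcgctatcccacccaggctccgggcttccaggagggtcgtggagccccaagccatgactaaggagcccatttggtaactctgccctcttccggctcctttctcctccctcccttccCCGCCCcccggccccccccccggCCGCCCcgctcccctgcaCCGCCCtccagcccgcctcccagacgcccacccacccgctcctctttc
Both of these promoters are rich in CpG. Over 250 bases before and 50 after the start, each holds 28 CpG dinucleotides, against a median of 14 over 35116 promoters. Their G and C content is 67.7% at CBLN2 and 73.3% at NETO1, against a median of 58.7%. The other NETO1 starts differ: the second has 26 CpG and 64.7% G and C, and the third has 1 CpG and 36% G and C. The GC box occurs 3 times at the outermost NETO1 start and not at CBLN2, and 44.95% of all promoters of this length hold it. AGGTGGCGC begins 140 bases before the CBLN2 start and at base 14 after the NETO1 start, and 0.558% of all promoters hold it on either strand.
NETO1 after its start: tagcagAGGTGGCGCgcagcc
These 9 letters were chosen after the sequences were read, and a match of letters is not a bound site. No CCAAT box (CCAAT), TATA box (TATAAA) or AP-1 site (TGANTCA) was found in the windows of CBLN2 and the outermost NETO1 start on either strand, and the third NETO1 start holds 1 CCAAT box. Of all promoters, 34.6%, 11.5% and 7.71% hold these motifs.

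More peaks were listed around the genes in CRAMP1-KO, mostly outside the gene limits. CRAMP1-KO replicates 1, 2 and 3 had 79, 86 and 87 peaks in the stretch, against 70, 38 and 32 for the WT replicates in the same order. Each CRAMP1-KO library had more than any WT library, although WT replicate 1 had the longest list of the 6 (198875 peaks, against 132686 to 157997). Per 10000 peaks listed, CRAMP1-KO had 5.86 ± 0.337 here, against 2.81 ± 0.614 for WT (SD, n = 3), a difference of 1.08 in mean log2 share. Covered bases gave the same order, at 34.4, 33.3 and 36.3 kb for CRAMP1-KO against 24.1, 16.5 and 14.7 kb for WT. The difference in log2 share was 0.63 when only peaks reaching −log10 q of 10 were kept, and 0.56 when the stretch was widened by 1 Mb on either side.

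**Figure D1:**
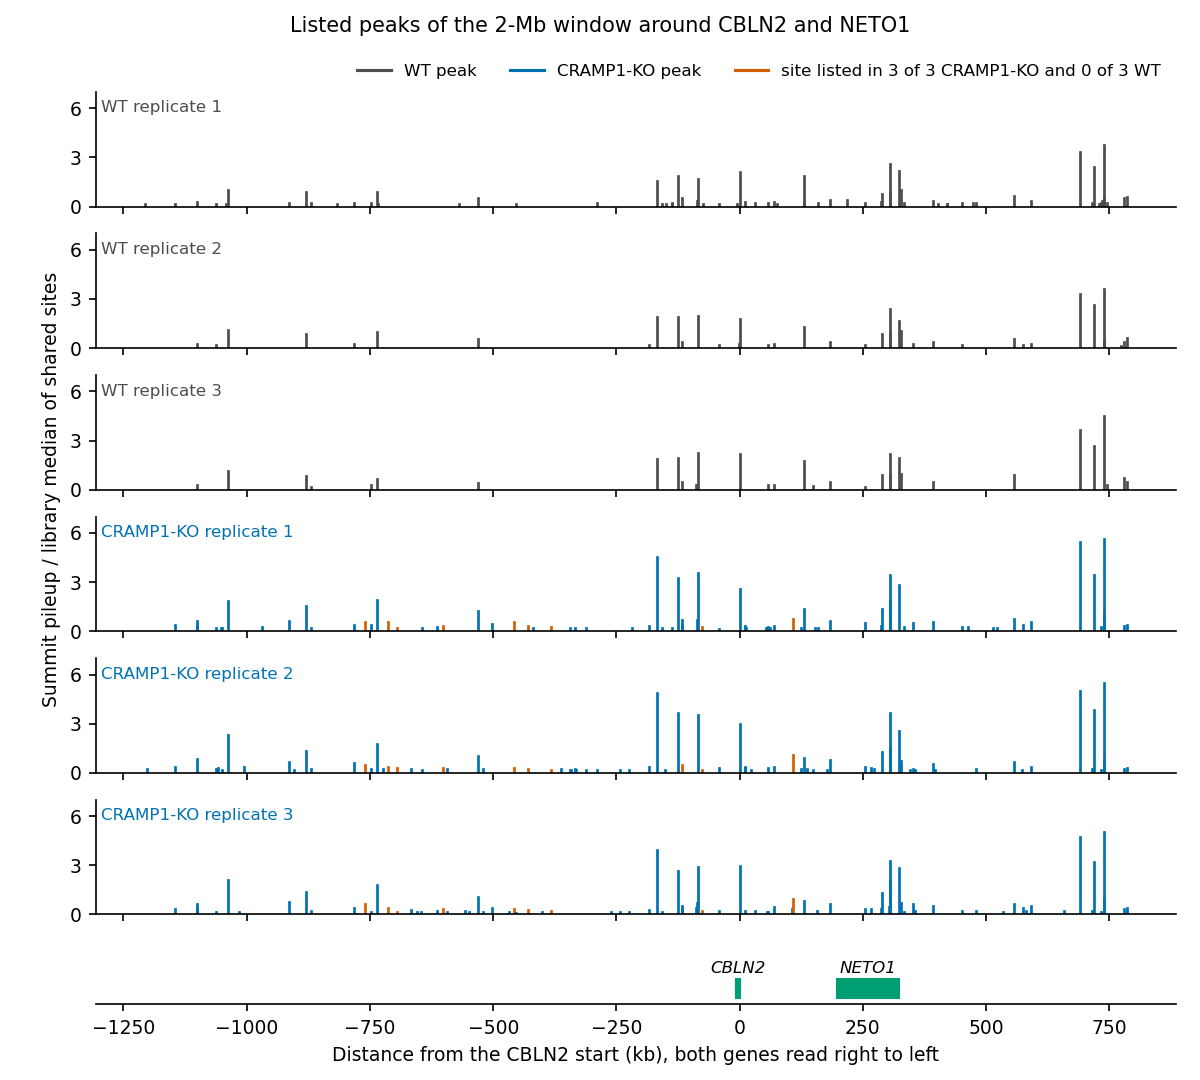
Peaks listed in each of the 6 libraries, by distance from the CBLN2 start (kb) and by summit pileup as a multiple of the library's median over all shared sites; green bars are the genes. The 10 sites listed in all CRAMP1-KO and no WT library (orange) lie to the left of CBLN2, except for 1 between the genes.

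By position the surplus lay mostly on the centromere side of CBLN2, beyond the end of the gene. That flank, from 69000000 to the CBLN2 limit at 70203915, held 41, 47 and 46 peaks in CRAMP1-KO, against 29, 13 and 12 for WT. CBLN2 itself, 70203915 to 70211803, held 1 peak per CRAMP1-KO library, against 2, 2 and 1 for WT. The interval between the genes held 14, 12 and 10 peaks in CRAMP1-KO, against 9, 4 and 5 for WT. The genotypes did not overlap in the flank or in that interval. NETO1, 70409549 to 70534810, held 5, 7 and 7 peaks in CRAMP1-KO, against 6, 4 and 5 for WT, and the flank beyond it held 18, 19 and 23 against 24, 15 and 9, so the genotypes overlap in both. The CBLN2 limits used here span 7889 bp, while its RefSeq entry in GRCh38.p14 spans 101841 bp, so some sites counted as between the genes may lie within longer CBLN2 transcripts.

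Of the 147 sites, 10 (6.80%) were listed in all 3 CRAMP1-KO libraries and in no WT library, and 0 showed the reverse. Over the genome 0.767% of sites were listed only in CRAMP1-KO in this way and 1.14% only in WT. These shares are a description, since the stretch was chosen with them in view. At 45 to 65 Mb of chromosome 18, a longer part of the same arm, 44 of 1172 sites (3.75%) were CRAMP1-KO-only and 4 were WT-only. Partial listings leaned the same way. More CRAMP1-KO than WT libraries listed 90 of the 147 sites (61.2%). More WT libraries listed 24 (16.3%), of which 18 were in WT replicate 1 alone. Over all sites these shares were 19.9% and 34.5%, and at 45 to 65 Mb they were 39.2% and 15.2%. The count of 10 depends on which libraries must agree. With CRAMP1-KO replicate 1 left out it was 17, and the share over the genome was 1.64%. Leaving out CRAMP1-KO replicate 3 also gave 17, with 1.10% over the genome. When a peak had to reach −log10 q of 10 it was 6, with 1.01% over the genome, and 3 of those 6 were among the 10.

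The strongest CRAMP1-KO-only site lay between the genes, from 70319983 to 70320641, 109 kb before the CBLN2 start. Its summit pileup, the number of stacked fragments solved from the deposited fold and p-value, was 47, 69 and 90 in the CRAMP1-KO libraries. That was 0.940 ± 0.171 times the median of each library's shared sites (SD, n = 3), so the site was about as high as a typical shared site. The deposited fold over local background was 9.51, 14.8 and 14.7. By median −log10 q it ranked 3 of the 1902 CRAMP1-KO-only sites in the genome. The nearest peak of any WT library was 21.3 kb away.

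The other 9 sites lay on the centromere side of CBLN2, from −759.8 to −76.2 kb of its start, and were weaker. The strongest of these, 69451734 to 69452274, had pileups of 35, 30 and 63 in CRAMP1-KO replicates 1 to 3, with folds of 8.58, 7.70 and 12.6. Pileups were 34, 24 and 38 at 69497896 to 69498620. They were 34, 20 and 33 at 69753645 to 69754056. These 3 sites stood at 0.408 to 0.571 times the library median, and no WT library listed a peak within 4.69 kb of them. At 70094647 to 70094909 the pileups were 20, 28 and 38, but a WT peak lay 0.203 kb away. That neighbour, 70095101 to 70095384, was listed in all 3 WT libraries and in CRAMP1-KO replicates 1 and 3. Joining peaks within 200 bp left 9 CRAMP1-KO-only sites in place of 10.

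The last 5 sites had low pileups. Pileups were 19, 17 and 34 at 69609676 to 69610056, and 18, 15 and 24 at 69782052 to 69782770. At 69516491 to 69516922 they were 11, 17 and 17. They reached 15, 11 and 20 at 70135472 to 70135821, and 16, 9 and 20 at 69827941 to 69828452. The lowest pileup listed anywhere in the stretch was 10, 9 and 11 in CRAMP1-KO, against 13, 12 and 10 for WT. The pileup of 9 had −log10 q of 1.31, at the edge of the list, while the sites at 69609676 and 69782052 had −log10 q of at least 5 in all 3 CRAMP1-KO libraries. WT pileup at the 10 sites is not known, because the lists give no value where no peak was called, and total read depth is unknown, so a fold against WT cannot be given.

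**Figure D2:**
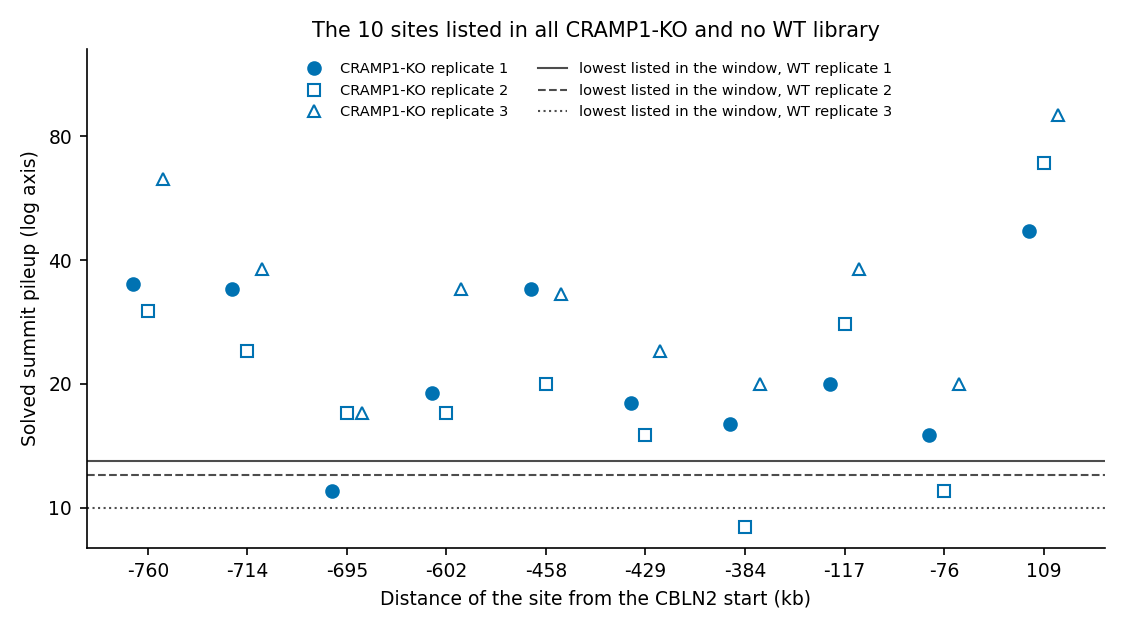
Solved summit pileup (log axis) of the 10 CRAMP1-KO-only sites in each CRAMP1-KO library, ordered by distance from the CBLN2 start (kb). Lines mark the lowest pileup listed in the stretch in each WT library (13, 12 and 10), and 3 of the 10 sites have a CRAMP1-KO library below at least 1 of these lines.

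The 10 sites were of moderate width and lay in quiet surroundings. Widths ran from 263 to 725 bp with a median of 472 bp, against 371.5 bp over all CRAMP1-KO-only sites and 554 bp over the 25 sites of the stretch shared by all libraries. At 8 of the 10 the local background equalled the genome-wide rate in all 3 CRAMP1-KO libraries. Their median −log10 q was 10.2, against 8.23 over all CRAMP1-KO-only sites, and 5 of the 10 lay above that value. Neighbours were 17.9 to 266 kb apart. CRAMP1-KO replicate 3, which has the highest background of the 3, had the highest pileup, ties included, at 9 of the 10.

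Just outside the definition, 6 sites were listed in all 3 CRAMP1-KO libraries and 1 WT library, which was WT replicate 1 at 4 of them and WT replicate 2 at 2. The widest, 69297737 to 69298855, had pileups of 37, 40 and 74 in CRAMP1-KO and 21 in WT replicate 1. At 70223055 to 70223321, 11.4 kb before the CBLN2 start, raw pileup had the opposite order, with 16, 20 and 21 in CRAMP1-KO and 27 in WT replicate 1. A further 19 sites were listed in 2 CRAMP1-KO libraries and no WT library, 13 of them on the centromere side of CBLN2. Within NETO1 there was 1 such site, from 70478364 to 70478574, with pileups of 17 and 29 in CRAMP1-KO replicates 2 and 3.

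Sites shared by all 6 libraries give a value in both genotypes. Pileup was put on the log2 scale relative to each library's median over all 92505 shared sites, a pileup of 61, 62 and 96 for CRAMP1-KO and of 97, 87 and 53 for WT. The median of the 25 shared sites of the stretch was 0.61, 0.42 and 0.45 in CRAMP1-KO, against −0.14, −0.18 and −0.17 for WT. All 3 CRAMP1-KO libraries were above all WT libraries, by 0.66 between the means (WT SD 0.02, CRAMP1-KO SD 0.10, n = 3). Site by site, CRAMP1-KO was above WT without overlap at 20 of the 25 and below at 2, and the genotypes overlapped at 3. Over the genome 14.4% of shared sites were above and 23.7% below in this sense. At 45 to 65 Mb of chromosome 18 the shares were 56.2% above and 3.46% below.

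Both gene starts were among the higher sites. The CBLN2 start peak, 70211418 to 70211971, had pileups of 158, 186 and 282 in CRAMP1-KO, against 204, 154 and 117 for WT. Relative to the library medians these were 1.37, 1.58 and 1.55 in CRAMP1-KO, against 1.07, 0.82 and 1.14 for WT on the log2 scale, without overlap, a difference of 0.49 (SE 0.12, n = 3). The NETO1 start peak, 70533801 to 70535831, stood at 1.496, 1.35 and 1.51 in CRAMP1-KO, against 1.12, 0.71 and 0.96 for WT on the same scale, a difference of 0.52 (SE 0.13, n = 3). It spans the gene limit and is counted with the flank beyond NETO1. The deposited fold at neither start separated the genotypes. At CBLN2 the fold was 15.3, 18.2 and 20.8 in CRAMP1-KO, against 19.5, 19.4 and 19.2 for WT. At NETO1 it was 8.20, 7.56 and 8.07 in CRAMP1-KO, against 8.28, 6.77 and 7.73 for WT.

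Inside NETO1 all 4 shared sites were higher in CRAMP1-KO by pileup, by 0.55 to 1.02 on the log2 scale. The largest difference was at 70517019 to 70517392, with relative log2 pileups of 0.88, 0.58 and 1.04 in CRAMP1-KO, against −0.21, −0.20 and −0.17 for WT. Its neighbour at 70515836 to 70516301, the tallest of the 4, differed by 0.55 (SE 0.08, n = 3) in pileup and by −0.18 in fold. The faintest, 70466408 to 70466944, had pileups of 29, 21 and 34 in CRAMP1-KO, against 23, 16 and 10 for WT, and a relative difference of 0.93 (SE 0.19, n = 3).

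By pileup the largest differences lay on the centromere side of CBLN2, where all 8 shared sites were higher without overlap, by 0.69 to 1.36 and with a median of 1.04 on the log2 scale. At 69110978 to 69111770 the relative log2 pileup was −0.68, −0.28 and −0.58 in CRAMP1-KO, against −1.79, −2.12 and −1.73 for WT. At 70042828 to 70043375, a tall site, it was 2.19, 2.28 and 1.97 in CRAMP1-KO, against 0.64, 0.92 and 0.89 for WT. The difference was 1.33 there (SE 0.13, n = 3) in pileup and 0.21 in fold. By fold the medians had another order: the median log2 difference was 0.21 over these 8 sites and 0.28 over the 4 sites inside NETO1. Differences were mixed further along. Between the genes the median difference in pileup was 0.27 over 4 sites, and beyond NETO1 it was 0.44 over 8 sites.

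A few sites went against the rest. At 70342572 to 70343158, between the genes and 131 kb before the CBLN2 start, the relative log2 pileup was 0.46, −0.12 and −0.26 in CRAMP1-KO, against 0.89, 0.34 and 0.83 for WT, a difference of −0.66 (SE 0.28, n = 3) with overlap between WT replicate 2 and CRAMP1-KO replicate 1. The strongest CRAMP1-KO-only site is its neighbour, at 109 kb. At the far edge, 70991946 to 70993013 and 70997185 to 70997581 were lower in CRAMP1-KO without overlap, with log2 differences of −0.87 and −0.73. The signs of all 25 sites were the same when libraries were scaled to their genome-wide background or to shared sites off chromosome 18.

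**Figure D3:**
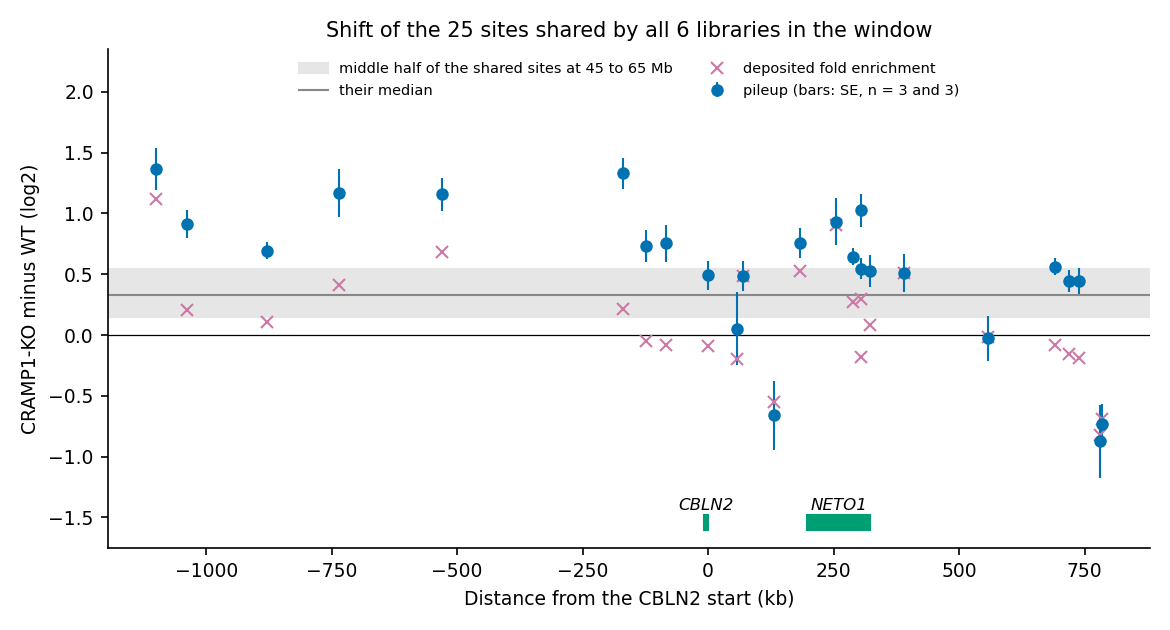
Difference of CRAMP1-KO minus WT (log2) at the 25 shared sites, by distance from the CBLN2 start (kb), in relative pileup (circles, bars are SE, n = 3 and 3) and in deposited fold enrichment (crosses). Grey shows the median (0.33) and middle range (0.15 to 0.54) of the 463 shared sites at 45 to 65 Mb, which 14 of the 25 circles exceed, while crosses lie lower than circles at most sites.

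The long arm of chromosome 18 was higher in CRAMP1-KO well beyond these genes, so the stretch was set beside the 463 shared sites at 45 to 65 Mb. Their median relative log2 pileup was −0.33, −0.29 and −0.27 in WT and 0.07 in each CRAMP1-KO library. That is a difference of 0.37 between the means, against 0.66 in the stretch as a whole. On this measure the stretch was uneven. The difference was 0.84 at 69 to 70 Mb, from 5 sites, which holds neither gene. It was 0.41 at 70 to 71 Mb, which holds both genes and 20 sites, near the 0.37. For the whole stretch, subtracting the value at 45 to 65 Mb library by library left 0.54, 0.35 and 0.38 in CRAMP1-KO, against 0.19, 0.12 and 0.10 for WT. The CRAMP1-KO libraries remained above the WT libraries, by 0.29 (WT SD 0.05, CRAMP1-KO SD 0.10, n = 3). Among shared sites with a median −log10 q of at least 10 the value was 0.49. Of the 25 sites, 20 lay above the median difference at 45 to 65 Mb (0.33) and 14 above its upper quartile (0.54), while 5 lay below its lower quartile (0.15). The sites above the 95th percentile (0.88) numbered 7, and those below the 5th percentile (−0.15) numbered 3.

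The median difference turned on whether the local background was divided out, but single sites varied. Local background at the shared sites, on the same relative log2 scale, was higher in CRAMP1-KO by 0.79 in the stretch and by 0.47 at 45 to 65 Mb. The solved background never falls below a library's genome-wide rate, so a lower local level would not show. The WT medians in the stretch lay at or near that rate. In deposited fold enrichment, which divides pileup by that background, the difference at the shared sites of the stretch was 0.034 on the log2 scale, and the value relative to 45 to 65 Mb was −0.040. By fold, 8 of the 25 sites changed sign: 2 on the centromere side of CBLN2, the CBLN2 start, 1 between the genes, 1 inside NETO1 and 3 beyond it. At 70042828 to 70043375 background differed by 1.25, and the difference was 1.33 in pileup and 0.21 in fold. At 70466408 to 70466944 the background equalled the genome-wide rate in all 6 libraries. Its difference of −0.015 is that of these rates, not a local value, and fold there is pileup over a constant of each library. The difference at this site was 0.93 in pileup and 0.90 in fold. What part the background has in the listing of new sites was not tested. No input DNA or copy number data were used here, so a different number of DNA copies along the arm and a different accessibility cannot be told apart in pileup or in background.

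Along the arm the difference was uneven. In steps of 1 Mb the median difference of shared sites was 1.16 at 69 Mb, from 5 sites, and 0.52 at 70 Mb, from 20 sites. It was 0.45 at 68 Mb and 0.38 at 71 Mb on either side, and −0.15 at 77 Mb. The bin at 63 Mb stood at 0.94 but held 2 shared sites, and the bin at 66 Mb stood at 0.73 with 6. The flank from 65 to 69 Mb was close to the stretch as a whole. Its 62 shared sites differed by 0.64 between the means of the library medians (WT SD 0.09, CRAMP1-KO SD 0.15, n = 3), near the 0.66 of the stretch, and 61.3% were higher in CRAMP1-KO without overlap. The median of the site differences was 0.44 in that flank and 0.56 in the stretch. CRAMP1-KO-only sites numbered 7 at 69 Mb and 3 at 70 Mb, against 1 at 68 Mb and 3 at 71 Mb. From 0 to 15 Mb, on the short arm, the shared sites differed by −0.03 between the means.

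**Figure D4:**
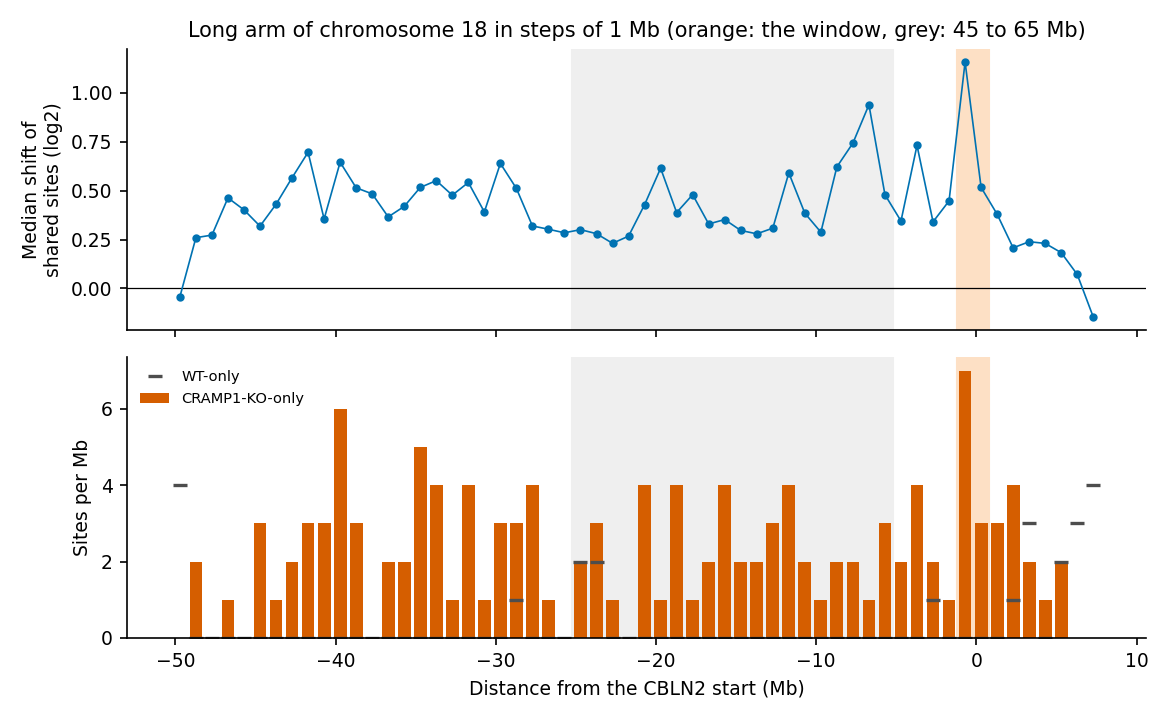
Chromosome 18 in 1-Mb steps from 20 to 78 Mb, by distance from the CBLN2 start (Mb): median CRAMP1-KO minus WT difference of relative pileup at shared sites (log2, top) and CRAMP1-KO-only and WT-only sites per Mb (bottom). The bin at 69 Mb, just left of 0 in the orange stretch, has a median difference of 1.16 and 7 CRAMP1-KO-only sites.

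The molecular partners of the pair lie on other chromosomes. The genes described were 12: the cerebellins CBLN1, CBLN3 and CBLN4, the delta receptor GRID1, the neurexins NRXN2 and NRXN3, the NETO1 paralogue NETO2, and the kainate receptor subunits GRIK1 to GRIK5. Within these genes and 2 kb on either side, 2 of 414 sites (0.483%) were CRAMP1-KO-only, 1 each in NRXN2 and NRXN3, and 2 (0.483%) were WT-only, in GRIK3 and GRIK4. The shares over all sites were 0.767% and 1.14%, so small counts are what the genome as a whole gives. Of their 142 shared sites, 23 (16.2%) passed limma as higher with CRAMP1-KO and 19 (13.4%) as lower at an adjusted p of 0.05, with a median log2 difference of −0.0074 (0.012 when scaled to the genome-wide background). Over all shared sites it called 9.36% higher and 15.5% lower, with a median of −0.07. Scaled to the genome-wide background it called 21 (14.8%) higher and 10 (7.04%) lower of the 142, against 4.74% and 4.71% of all shared sites. By fold enrichment it called 13 (9.15%) and 4 (2.82%), against 4.05% and 2.94% of all shared sites. For all shared sites the share of calls that were higher was 37.6% in the first scaling, 50.2% by genome-wide background and 57.9% by fold. These p-values measure only the spread between libraries, which may be technical.

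In the first scaling the calls were unequal among the partners. In NRXN3 12 of 35 shared sites were called higher and 1 lower, and in GRID1 7 of 35 were higher and 2 lower. In NRXN2 0 of 14 were higher and 11 were lower, with a median log2 difference of −0.48. Not all of these 11 calls hold in the other settings. There all 12 genes together had 10 lower calls when scaled to the genome-wide background and 4 by fold. The 3 cerebellin genes had 6 shared sites, of which 1, in CBLN3, was lower. NETO2 had 2 shared sites and neither was called. The 5 kainate receptor genes had 4 of 50 higher, in GRIK1 and GRIK3, and 4 lower, in GRIK1, GRIK4 and GRIK5. Sites within 1 gene share their surroundings and are not replicates.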

How the data were processed

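Peaks were called by the authors with MACS3 after bcl2fastq 2.20.0, cutadapt 3.4 and BWA 0.7.17-r1188 on hg19, per the submitters' processing notes. Its version, filters and any read shift were not given in the sources used here. For each library a list was deposited with a score (10 times −log10 q, truncated), the fold enrichment of the summit over local background as a ratio, and −log10 p and −log10 q. The deposited lists hold no read counts, so depth is unknown and no counting interval is given.

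Pileup and background were solved from fold (pseudocount of 1) and Poisson −log10 p. A whole pileup matched the deposited −log10 p within 0.005 at 100% of peaks on chromosomes 1 to 22 and X. The solver and limma were tested on simulated data. Shared sites, those with a peak in all 6 libraries, were fitted with limma 3.58.1 in R 4.3.3, with a mean-variance trend, two-sided, and Benjamini-Hochberg adjustment at 0.05. Tables and figures were made in Python 3.11.15 with matplotlib 3.10.9, scipy 1.17.1, pandas 2.3.3 and numpy 2.4.6.

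The members and lists were chosen with earlier results of these data known. All CRAMP1-KO-only sites and the partner genes were named, apart from 2 that are not reported here; other sites were named after their values were seen. Gene limits of partners and markers were written by hand for hg19 and checked against a GRCh38.p14 gene table for chromosome (18 of 18) and length (0.990 to 1.16 times). No hg19 genome or annotation was used here. Results were recomputed with higher q cutoffs, equally long lists, other joining rules, windows and scalings, fold for pileup, replicate number as a block, and each library removed.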

Additional observations from a re-analysis of the deposited data

How the results depend on the processing

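The count of 10 CRAMP1-KO-only sites was 6 at −log10 q of at least 10, and 10 to 17 with each library left out in turn. The difference in log2 peak share of 1.08 was 0.84 and 0.63 at −log10 q of at least 5 and 10, and 0.56 in the widened window. The pileup difference of 0.66 was 0.034 by fold, 0.83 at stronger shared sites and 0.55 to 0.68 with a library left out. The value relative to 45 to 65 Mb, 0.29, was −0.040 by fold, 0.49 at stronger shared sites and 0.20 to 0.34 with a library left out. By fold, local background is part of the value. Limma's 8656 higher sites became 4385 scaled to the genome-wide background and 3749 by fold. Its 14370 lower sites became 4357 and 2723 in these settings, 9045 without the trend, and 9447 to 14760 with a library left out, the lowest without WT replicate 2; the cause was not tested. With the replicate number as a block, limma called 8511 higher and 13662 lower. Same-numbered libraries did not deviate together (r of 0.06, 0.06 and −0.09 over 92505 sites). With 3 libraries of each genotype this cannot exclude a shared culture or day, and the labels do not say what the number marks. Low pileups limit the weakest sites.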

Other observations

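The genome was cut into windows of 2 Mb that began at odd Mb, and 1434 held at least 20 sites. The chosen stretch coincides with one of these windows. It was chosen by these same peak calls, so its ranks follow from the choice and are no test. It held the most CRAMP1-KO-only sites (10 of its 147 sites, against a median of 1 per window). It ranked 2 by log2 ratio of mean peak share (1.06) and 37 by the share of its sites that were CRAMP1-KO-only (6.80%). The 5 windows with the highest such share held few sites. They were 61 to 63 Mb of chromosome 13 (4 of 24), 83 to 85 Mb of chromosome 3 (5 of 35), 115 to 117 Mb of chromosome 2 (4 of 30), and 63 to 65 Mb (4 of 31) and 27 to 29 Mb (5 of 40) of chromosome 18. None of these 5 held a WT-only site. Their log2 ratios of mean peak share were 0.78, 0.84, 0.49, 1.59 and 1.01, and the window at 63 to 65 Mb of chromosome 18 had the highest ratio of the 1434.

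Among the marker genes, RUNX2, the bone-lineage regulator, and SNAP25, a neuronal gene, each held 1 CRAMP1-KO-only site, of 20 and 9 sites, and COL1A1, COL1A2, PTPRC and EPCAM held 0, where the share over all sites was 0.767%.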
